A study of Homo sapiens with 4 samples.

Results

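The mRNAs of the m6A writer complex were followed in 4 RNA libraries of a human breast cancer cell line. The genes were METTL3, METTL14, WTAP, VIRMA, RBM15, RBM15B, ZC3H13 and CBLL1. They were taken by gene symbol from the deposited table, which held 36203 gene identifiers, and all 8 were found. All 8 also passed the filter on low values, which kept 12848 genes with at least 1 FPKM in at least 2 of the 4 libraries. FPKM is the number of fragments per kilobase of gene scaled to the size of the library, so levels of different genes can be set side by side within a library.

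The libraries fell into 2 groups. In YTHDF3 RIP (RNA immunoprecipitation), RNA was recovered with an antibody from Santa Cruz Biotechnology against YTHDF3, one of the cytoplasmic readers of N6-methyladenosine (m6A) in mRNA, and there were 2 libraries. Input, the RNA without that antibody, also had 2 libraries. No treatment is named for either group. The sample labels call the cells of both MDA-MB-231 and the growth protocol calls them MDA-MB-231Br, a brain-seeking derivative, grown in DMEM with serum. The extraction text names embryos and an m6A antibody, neither of which fits these samples, so the protocol that was followed is not settled here. Nothing says that a group's libraries were separate cultures, so p-values measure only how much these libraries varied, which may be technical. A RIP with a control antibody was not analysed here, so the values do not separate RNA bound by YTHDF3 from other RNA kept by the procedure. In bulk RNA, fewer molecules per cell and fewer cells with the transcript cannot be told apart.

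The writer complex places a methyl group on adenosine in nascent mRNA. METTL3 is the catalytic subunit, and METTL14 is its partner, which holds the RNA in place. Around this pair sits a regulatory part. WTAP brings the pair to nuclear speckles, VIRMA is a large scaffold, RBM15 and its paralog RBM15B bind RNA and recruit the complex, ZC3H13 keeps it in the nucleus in mouse cells, and CBLL1 (also called HAKAI) is a RING finger protein of the complex. In mRNA, m6A lies in short sequences around a central adenosine and is frequent near stop codons, and YTHDF proteins read it in the cytoplasm.

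GGACT, a common core of these sequences in DNA letters, occurred in the reference transcript of every member. Below is, for the members with the largest and the smallest differences between RIP and input, the GGACT nearest to the stop codon that lies with its flanks in a single exon, with the motif in capitals. The sequences are from GENCODE release 29 transcripts on GRCh38, 5′ to 3′. They show the letters only, since methylation of these adenosines was not measured.
RBM15, coding, chr1:110341191-110341215, plus strand: cgcagcactcGGACTgcagctactt
RBM15B, after the stop codon, chr3:51394532-51394556, plus strand: ggctcagtctGGACTctacttacac
WTAP, coding, chr6:159755565-159755589, plus strand: agaatggcttGGACTcaagtgtaaa
METTL14, coding, chr4:118705651-118705675, plus strand: gcacagacggGGACTtcattcatgc
METTL3, coding, chr14:21503336-21503360, minus strand: gtgcagaacaGGACTcgactacagt

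Of these 5 sites, only that of WTAP is close to a stop codon, with its adenosine 32 bases before it. The sites of METTL14, RBM15B, RBM15 and METTL3 lie 461, 474, 1134 and 1193 bases from theirs. Within 300 bases on either side of the stop codon, 48.8% of 9013 tested coding genes with a full window of 600 bases held GGACT on the sense strand. Of the members, WTAP and VIRMA did, with 1 motif each, and the other six did not (the METTL3 window was cut short, to 423 bases, by the end of its transcript). Over whole transcripts, METTL3 had the densest GGACT of the members, 1.99 per kilobase with 4 motifs in 2015 bases, and ZC3H13 the sparsest, 0.624 per kilobase. The median of 10845 tested coding genes was 0.921 per kilobase. RBM15 (0.943) and RBM15B (0.903) were near that median. Among coding genes the median was 1.03 per kilobase for those called higher in RIP and 0.735 for those called lower, by the test described below. These sets also differed in the length of the reference transcript, with medians of 3817.5 and 1969 bases. The part of length in the difference in density was not tested.

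RBM15 and RBM15B rose in YTHDF3 RIP, and no member fell. The other six did not pass the test. Among them VIRMA came closest, and METTL3 was the only member with a negative fold change. RIP was compared with input by limma on log2(FPKM + 1) over all 12848 genes, with Benjamini-Hochberg adjusted p-values over all of them and a threshold of 0.05, and all fold changes below are on that scale, which understates changes of low genes. By this rule 15.4% of all genes tested were higher in RIP and 24.3% were lower, against 2 and 0 of the 8 members. With so few genes the first share is not far from the background, and the list was not tested. The median log2 fold change was 1.01 for the members (0.88 without RBM15) and -0.10 for all genes tested. Higher genes made up 38.8% of all calls on the deposited scale and 52.1% after quantile normalization, which moved the median of all genes to 0.13, and where 24.0% of all genes tested were higher and 22.0% lower, and 4 of the 8 members were higher. The direction of each of the 8 members was the same under both scalings. Where a library is left out below, its group keeps 1 library, so the spread comes from the other group alone and the lone library is assumed to vary like it (the median SD in log2 was 0.536 in RIP and 0.245 in input). With either input left out no gene of the table passed, and RBM15 then had 3.22 and 3.62 and RBM15B 3.01 and 2.63 (without input 1 and without input 2). With no filter on low values both just missed the threshold (limma adjusted p = 0.0516 for RBM15 and 0.0503 for RBM15B).

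**Figure D1:**
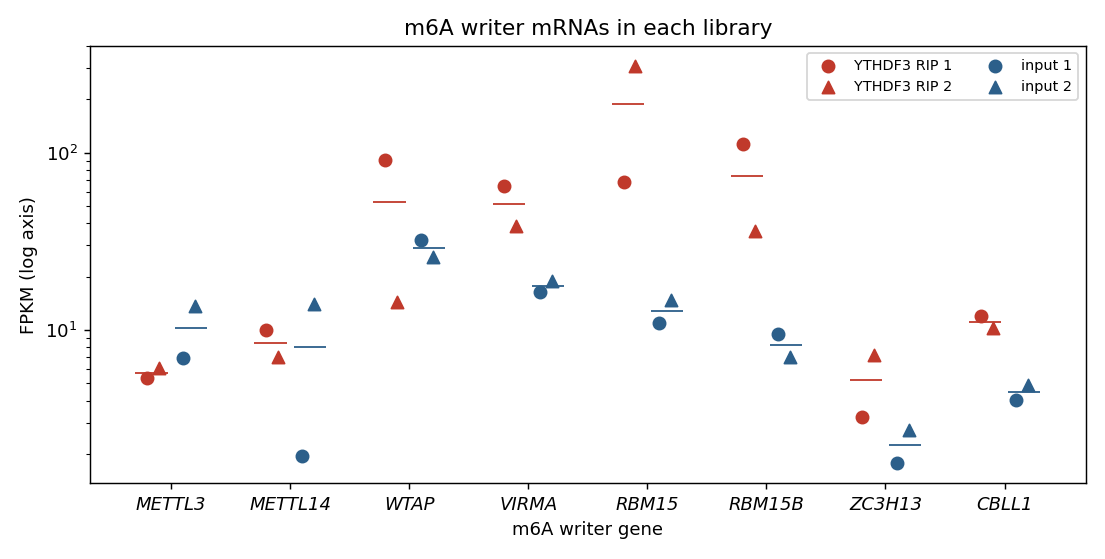
FPKM (log axis) of the 8 writer mRNAs in each library, with YTHDF3 RIP in red and input in blue; circles are library 1, triangles library 2, and lines the mean of the group. Both RIP values lie above both inputs for VIRMA, RBM15, RBM15B, ZC3H13 and CBLL1 and below both for METTL3, and they overlap the inputs for METTL14 and WTAP.

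The libraries themselves differed in ways that touch these values. A step that may stand for 1 read per kilobase was 0.0964 FPKM in RIP 1, 0.322 in RIP 2, 0.163 in input 1 and 0.137 in input 2, so RIP 2 was the shallowest library. Depth is known only as far as these steps show it. RIP 2 also carried an excess of chromosome 1, which took 35.9% of signal weighted by exon length there, 10.6% in RIP 1, and 9.2% and 9.48% in the inputs. RIP 2 also exceeded RIP 1 on chromosome 10, by a median of 0.67 in log2 over 433 tested coding genes. Of the members, only RBM15 lies on chromosome 1, and none lies on chromosome 10. The other members lie on chromosomes where tested coding genes were lower in RIP 2 than in RIP 1 by median. Over the autosomes other than 1 and 10 and X, those medians lay between -0.91 and -0.34 in log2. The part of this shift in the members' values was not tested. The line's markers VIM, CD44, AXL and KRT18 were at 19.6 FPKM or more in every library, while ESR1 and CDH1 were at 0 in all 4 and PGR was at or below 0.118 FPKM. ERBB2 and EPCAM, also named as low in this line, had 31.1 and 7.45 FPKM and 1.10 and 0.187 FPKM in RIP, and 9.07 and 5.77 FPKM and 11.98 and 3.88 FPKM in input. SPARC, also taken as a marker of this line, was at 0 in both RIP libraries and in input 2. Of 8 markers of other cell types, PTPRC, NANOG, GFAP, LIN28A and ALB were at 0 in all 4 libraries, and the summed level of the list was 1.97 and 1.18 FPKM in RIP and 0.312 and 0.44 FPKM in input.

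RBM15 and RBM15B, the RNA-binding recruiters of the complex, had the largest fold changes of the members. RBM15B (ENSG00000259956, chromosome 3, 51391268 to 51397908 in GRCh38) had 113 FPKM in RIP 1 and 36.0 FPKM in RIP 2, and 9.50 and 7.03 FPKM in the inputs. Both RIP values were well above both inputs, but RIP 1 was 3.13 times RIP 2. The means were 74.4 ± 54.3 FPKM in RIP and 8.26 ± 1.74 FPKM in input (SD, n = 2 each), with a log2 fold change of 2.82 (SE 0.64, 95% interval 1.28 to 4.36, limma adjusted p = 0.0201). It was larger than that of 98.1% of all genes tested. Without RIP 1 the log2 fold change was 2.01 and without RIP 2 it was 3.63. RBM15B shares 1325 exonic bases with DCAF1 on the opposite strand. Whether reads were counted by strand is not given in the sources used here, so reads of the pair may be mixed. DCAF1 had 14.2 and 23.6 FPKM in RIP and 5.19 and 5.96 FPKM in input, with the larger RIP value in the other library than for RBM15B. Both genes were higher in both RIP libraries than in both inputs, and mixing of their reads was not tested.

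RBM15 (ENSG00000162775, chromosome 1, 110338506 to 110346681) had 68.5 FPKM in RIP 1 and 309 FPKM in RIP 2, and the inputs had 10.9 and 14.8 FPKM. The groups did not overlap, and here RIP 2 was the higher one, 4.51 times RIP 1. The log2 fold change was 3.42 (SE 0.75, 95% interval 1.61 to 5.24, limma adjusted p = 0.0187), larger than that of 99.4% of all genes tested. RIP 2 exceeded RIP 1 by 2.16 in log2 for RBM15. The median of that difference was 2.05 over the 50 tested coding genes of the same 10 Mb bin and 1.67 over the 1138 on chromosome 1, and on the autosomes other than 1 and 10 and on X it lay between -0.91 and -0.34. The gap between the RIP libraries at RBM15 is thus about that of its neighbours. Without RIP 2 the log2 fold change of RBM15 was 2.34, and after RIP 2 was adjusted by the median of each bin it was 2.40. That adjustment brings RIP 2 close to RIP 1 by its construction and so narrows the spread within RIP, and no p from it is given here. RBM15 also has an antisense gene, RBM15-AS1, which shares 175 exonic bases with it and was not analysed here.

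The paralogs changed places between the RIP libraries. RBM15 lies on chromosome 1, which was in excess in RIP 2, and RBM15B does not, so their order is not separated from that excess. After RIP 2 was adjusted by the median of each bin, the log2 fold change was 2.40 for RBM15 and 3.16 for RBM15B. RBM15 stood at 0.608 times RBM15B in RIP 1 and 8.6 times in RIP 2, against 1.15 and 2.10 times in the inputs. RBM15 made up 18.6% of the summed FPKM of the 8 members in RIP 1 and 72.1% in RIP 2, against 13.1% and 14.5% in the inputs. RBM15B made up 30.6% and 8.39% in RIP, against 11.3% and 6.92% in the inputs. Most of the RIP 2 sum is RBM15, so the shares of RBM15B and the other members there are lowered by that large value.

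**Figure D2:**
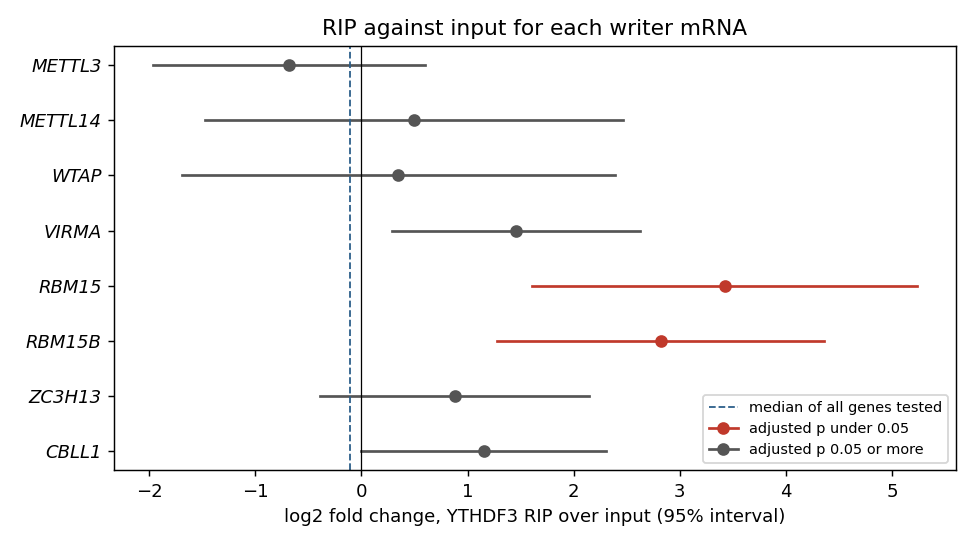
Log2 fold change of YTHDF3 RIP over input for each writer mRNA (horizontal axis) with its 95% interval from limma; red marks an adjusted p under 0.05 and the dashed line the median of all 12848 genes tested (-0.10). RBM15 (3.42) and RBM15B (2.82) passed, and the intervals of METTL3, METTL14, WTAP, ZC3H13 and, by a small margin, CBLL1 span 0.

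VIRMA and CBLL1 had higher values in both RIP libraries than in both inputs but missed the threshold. VIRMA, the scaffold (ENSG00000164944, chromosome 8, 94487693 to 94553529), had 64.6 and 38.6 FPKM in RIP and 16.4 and 18.9 FPKM in input. Its log2 fold change was 1.45 (SE 0.48, 95% interval 0.29 to 2.62, limma adjusted p = 0.0534). VIRMA passed in 6 of 12 alternatives, among them quantile normalization (limma adjusted p = 0.0395). It also passed in a fit on only the genes outside chromosomes 1 and 10 (limma adjusted p = 0.0358), where its fold change was still 1.45. It missed with 0.1 in place of 1 added to FPKM (limma adjusted p = 0.0597) and with every gene above 0 kept (0.0788). An empirical Bayes step that had no trend gave 0.0534 in limma. Without RIP 1 the log2 fold change was 1.09, and without RIP 2 it was 1.82. CBLL1 (ENSG00000105879, chromosome 7, 107743697 to 107761667) had 11.98 and 10.3 FPKM in RIP and 4.02 and 4.89 FPKM in input. These were close pairs: the gap between its RIP libraries, 0.21 in log2, was wider than that of 16.2% of all genes tested. CBLL1 has an antisense gene, AC002467.1, which shares 333 exonic bases with it and was not analysed here. The log2 fold change of CBLL1, 1.15 (SE 0.48, 95% interval -0.00054 to 2.31), had an adjusted p of 0.0943 in limma. Quantile normalization gave 1.37 (limma adjusted p = 0.0409), and CBLL1 passed in 4 of the 12 alternatives.

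ZC3H13, a zinc finger subunit (ENSG00000123200, chromosome 13, 45954465 to 46052759), was the lowest member in both groups by mean. It had 3.23 and 7.25 FPKM in RIP and 1.77 and 2.74 FPKM in input. The groups did not overlap, but RIP 1 lay only slightly above input 2. The log2 fold change was 0.88 (SE 0.52, 95% interval -0.39 to 2.14, limma adjusted p = 0.211). Without RIP 1 it was 1.36, and without RIP 2 it was 0.39.

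Both RIP libraries lay above both inputs for these 5 members (VIRMA, RBM15, RBM15B, ZC3H13 and CBLL1), as they did for 35.7% of all genes tested. Both lay below for METTL3, as for 40.1% of all genes.

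In the catalytic pair, METTL3 had lower values in RIP and METTL14 overlapped the inputs, and neither passed the test. METTL3 (ENSG00000165819, chromosome 14, 21498133 to 21511375) had 5.33 and 6.14 FPKM in RIP and 6.99 and 13.6 FPKM in input. The RIP values were close together and below both inputs, which differed 1.95-fold. The log2 fold change was -0.69 (SE 0.53, 95% interval -1.97 to 0.59, limma adjusted p = 0.324), and it passed in none of 12 alternatives, with values from -1.12 to -0.25. The upper end of its interval lies below the lower end of that of RBM15B, 1.28. METTL3 shares 388 exonic bases with TOX4 on the opposite strand, which had 6.56 and 7.05 FPKM in RIP and 16.95 and 26.8 FPKM in input, so these genes showed the same order of libraries.

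METTL14 (ENSG00000145388, chromosome 4, 118685368 to 118715433) had 9.98 and 7.002 FPKM in RIP, against 1.95 FPKM in input 1 and 14.0 FPKM in input 2. Both RIP values lay between the inputs. The inputs differed 7.19-fold, a gap in log2 (2.35) wider than that of 99.6% of all genes tested. The log2 fold change was 0.50 (SE 0.82, 95% interval -1.47 to 2.46, limma adjusted p = 0.641). Its sign depended on the inputs, with 1.67 without input 2 and -0.68 without input 1. Its ratio to METTL3 was 1.87 and 1.14 in RIP and 0.278 and 1.03 in the inputs.

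WTAP, which brings the pair to nuclear speckles (ENSG00000146457, chromosome 6, 159725585 to 159756319), was split between the RIP libraries. It had 91.4 FPKM in RIP 1 and 14.4 FPKM in RIP 2, and the inputs had 32.1 and 25.7 FPKM. RIP 1 was above both inputs and RIP 2 below both, and the gap between them (2.58 in log2) was wider than that of 96.8% of all genes tested. The log2 fold change was 0.35 (SE 0.85, 95% interval -1.69 to 2.39, limma adjusted p = 0.758). Without RIP 2 it was 1.64, and without RIP 1 it was -0.95. WTAP shares 298 exonic bases with SOD2 on the opposite strand, which had 5.46 and 1.41 FPKM in RIP and 22.5 and 10.7 FPKM in input. Its processed pseudogene WTAPP1 was at 0.241 FPKM in RIP 1 and at 0 in the other libraries.

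**Figure D3:**
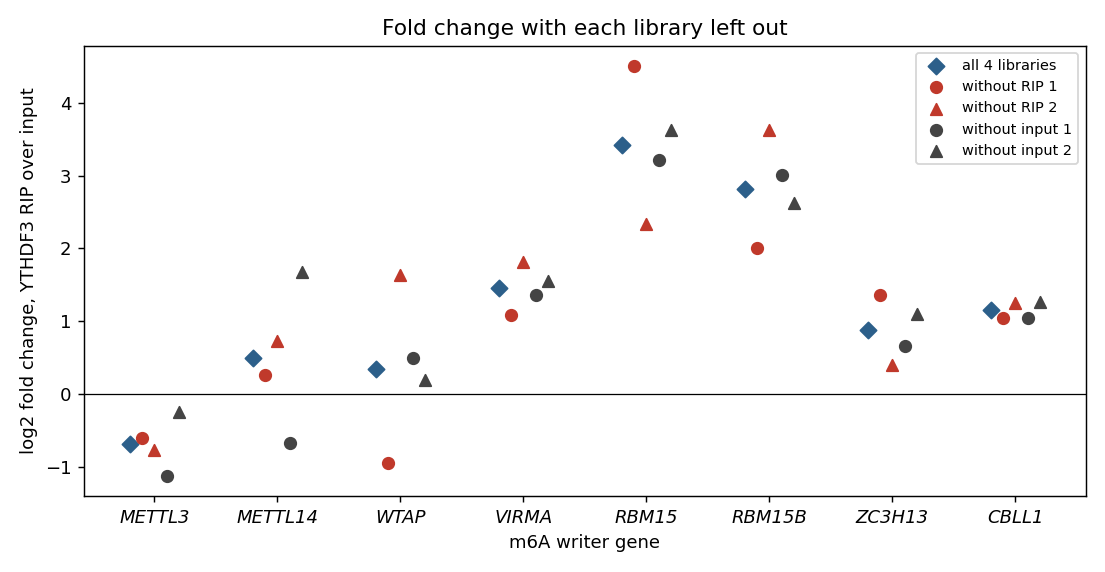
Log2 fold change of YTHDF3 RIP over input (vertical axis) for each writer mRNA with all 4 libraries (diamond) and with each library left out. WTAP is at 1.64 without RIP 2 and -0.95 without RIP 1, METTL14 at 1.67 without input 2 and -0.68 without input 1, while RBM15 and RBM15B stay at 2.01 or higher.

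The order of levels differed between the groups. In RIP, the mean FPKM ran from RBM15 (189) through RBM15B (74.4), WTAP (52.9), VIRMA (51.6), CBLL1 (11.1), METTL14 (8.49) and METTL3 (5.73) to ZC3H13 (5.24). Among neighbours in that order, the values of RBM15 and RBM15B, of RBM15B and WTAP, of WTAP and VIRMA and of METTL3 and ZC3H13 overlapped, so their order is not settled. In input, it ran from WTAP (28.9) through VIRMA (17.7), RBM15 (12.8), METTL3 (10.3), RBM15B (8.26), METTL14 (7.97) and CBLL1 (4.45) to ZC3H13 (2.25). There WTAP, VIRMA and RBM15 stood apart from each other, as did CBLL1 and ZC3H13, and the other neighbours overlapped. METTL3 was thus number 7 by mean in RIP and number 4 in input.

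Ratios within a library do not depend on the scaling between libraries. METTL3 was taken as the denominator after its values were seen, so these ratios are a description. RBM15B stood at 21.1 and 5.86 times METTL3 in RIP, against 1.36 and 0.515 times in input. VIRMA stood at 12.1 and 6.30 times METTL3 in RIP, against 2.35 and 1.38 times in input. CBLL1 stood at 2.25 and 1.67 times METTL3 in RIP, against 0.575 and 0.358 times in input. In all, 6 of the 7 ratios to METTL3 were higher in both RIP libraries than in both inputs, and the exception was WTAP. Of all other genes tested, 42.6% had such a ratio. An exact permutation test of 2 libraries against 2 cannot give a two-sided p below 0.333, and the ratios were not tested in another way.

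**Figure D4:**
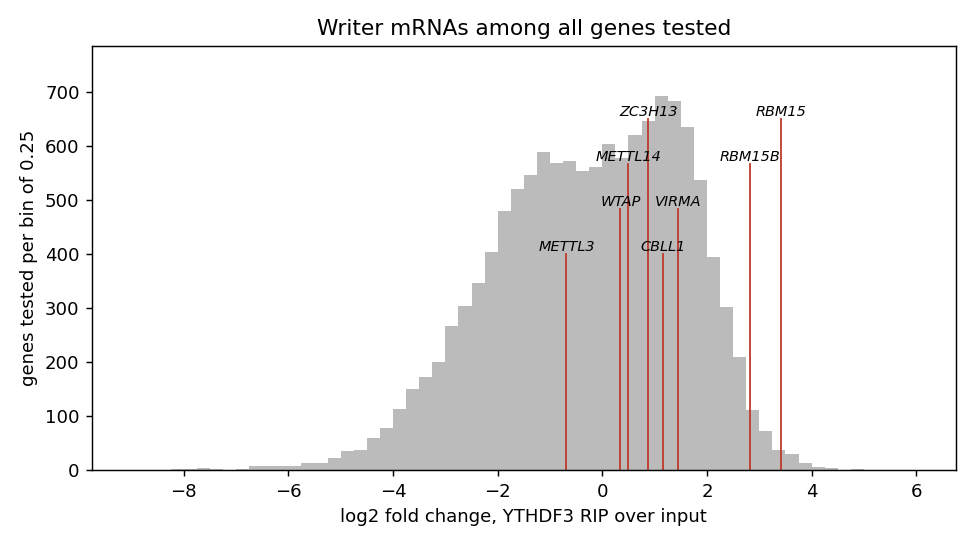
Number of tested genes (vertical axis) by log2 fold change of YTHDF3 RIP over input (horizontal axis, bins of 0.25), with the 8 writer mRNAs as red lines whose heights only separate the names. METTL3 (-0.69) lies below the median of all genes (-0.10), and RBM15B (2.82) and RBM15 (3.42) lie in the upper tail.

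The members are long genes. All 8 fell above the median of tested genes by summed exon length, VIRMA (10771 bases) and ZC3H13 (10265 bases) in the longest quartile and the other six between 4670 and 6862 bases. Fold change moved with this length over all genes tested, with a median log2 fold change of -1.41, -0.11, 0.26 and 0.53 from the shortest to the longest quartile. In the third quartile 17.4% of genes were higher and 15.4% lower, and in the longest 17.9% and 10.7%. The reference transcript of METTL3, 2015 bases, is nevertheless short, longer than 23.8% of those of tested coding genes, and that of RBM15B, 6641 bases, is longer than 87.3%. The part of length in the members' values was not tested.

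The genes most like the catalytic pair over the 4 libraries were found by the distance between gene-centred log2 values, outside chromosomes 1 and 10. Those nearest to METTL3 were HSPA8P16 (distance 0.111), a processed pseudogene at low levels, and PES1 (0.15), a ribosome biogenesis factor with 14.8 and 16.3 FPKM in RIP and 21.2 and 37.4 FPKM in input. Nearest to METTL14 were SP110 (0.141), a nuclear body protein, and INCENP (0.159), a subunit of the chromosomal passenger complex with 13.0 and 8.94 FPKM in RIP and 3.12 and 17.1 FPKM in input. These 4 genes were picked for closeness over these same values, so they share the pair's order of inputs, with input 2 higher than input 1. SP110 was listed at 0 in input 1.

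Other genes of the m6A pathway moved in both directions. Of 16 tested, 3 were higher in RIP and 6 lower, against 15.4% and 24.3% of all genes, and the median log2 fold change was -0.29. The 3 were the reader genes YTHDF1 (3.15, limma adjusted p = 0.0143), YTHDF2 (3.26, adjusted p = 0.0411; on chromosome 1, with 79.7 and 695 FPKM in RIP and 22.6 and 24.98 FPKM in input) and YTHDF3 (2.54, adjusted p = 0.0122). YTHDF3 encodes the protein the antibody is against, and had 75.8 and 72.4 FPKM in RIP and 10.3 and 13.8 FPKM in input. METTL5 and its activator TRMT112, which methylate ribosomal RNA, had log2 fold changes of -3.07 and -2.07 (limma adjusted p = 0.0091 and 0.0211), and ZCCHC4, another ribosomal RNA methyltransferase, had -2.28 (adjusted p = 0.0122). The RNA-binding protein genes HNRNPA2B1 (-2.71), HNRNPC (-2.62) and IGF2BP3 (-1.75) were also lower (limma adjusted p = 0.0338, 0.0258 and 0.037). METTL16, an m6A methyltransferase that acts outside the complex, had 0.40 (adjusted p = 0.576), and the demethylase genes FTO and ALKBH5 had 0.91 and 0.43 (adjusted p = 0.168 and 0.535).

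The writers use S-adenosylmethionine as methyl donor. Of 6 tested genes of its supply, MAT2A was higher and MAT2B was lower, and the median log2 fold change was -0.01. MAT2A, the synthase subunit, had 306 and 292 FPKM in RIP and 49.3 and 67.9 FPKM in input, with a log2 fold change of 2.35 (SE 0.50, limma adjusted p = 0.0173). Its regulatory partner MAT2B had 5.05 and 2.63 FPKM in RIP and 43.3 and 38.7 FPKM in input (-3.16, SE 0.50, limma adjusted p = 0.01). MTR, methionine synthase, on chromosome 1, had 9.22 and 38.5 FPKM in RIP and 3.61 and 4.72 FPKM in input (1.97, limma adjusted p = 0.0688). AHCY, which clears the product of methylation, had -0.97 (adjusted p = 0.142).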

How the data were processed

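The authors deposited a table of 36217 rows with a value per gene for each of the 4 libraries; 14 repeated identifiers were dropped. No header or label names the unit. The deposited values were taken as FPKM because they are not whole and their sums differ between groups (301226 and 301483 in RIP, 700141 and 690869 in input), while sums weighted by exon length are close (1688125 and 1733992, 1621380 and 1566173). Per the submitters' processing notes, the tools and builds include HISAT2 and GRCh38; the HISAT2 version, the counting program, the annotation and whether strand was used are not given in the sources here. Gene positions, exon lengths and transcripts are from GENCODE release 29 on GRCh38, which holds 36125 of the identifiers.

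Genes with at least 1 FPKM in at least 2 libraries were fitted in R 4.3.3 by limma 3.58.1 as log2(FPKM + 1), with a trended empirical Bayes step and no block. Tests were two-sided, with Benjamini-Hochberg adjustment over all 12848 genes. The fit was tested on simulated data with independent noise, a single SD for each group and no chromosome excess. There it recovered 73% of planted log2 changes of 2 and 99% of larger ones. Since these libraries differ from that setting, the simulation does not show how many changes were missed here. RIP 1 and input 1 share a title suffix, as do RIP 2 and input 2. The libraries were numbered in accession order. In all, 12 alternatives were run. The members and lists were chosen with earlier results of these data known. Besides all members, the genes named are those of the 2 pathway lists past the threshold or with the 2 largest or smallest fold changes, and the 2 nearest genes of METTL3 and METTL14; METTL16, FTO, ALKBH5 and the overlapping genes were named after their values were seen. A gene first placed on the methyl donor supply list is not reported here and was left out of its counts.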

Additional observations from a re-analysis of the deposited data

How the results depend on the processing

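With no filter on low values, every gene above 0 in any library was fitted. There none of the members passed (limma adjusted p = 0.0516 for RBM15 and 0.0503 for RBM15B), and 4 members were higher at an unadjusted p under 0.05. Of the genes fitted there, 718 were higher, and 3 other m6A genes were lower. Quantile normalization called 4 members and 3085 genes higher, and shifting the libraries to one median also called 4 members. Adjusting RIP 2 for position called 4 members and 3619 genes higher, and 2 methyl donor supply genes higher and 2 lower. Each of these 3 settings added VIRMA and CBLL1, and the last narrows the spread within RIP by its construction. A fit on only the genes outside chromosomes 1 and 10 leaves RBM15 out. There the members that passed were RBM15B and VIRMA (limma adjusted p = 0.0131 and 0.0358). With a library left out, when the spread comes from the other group alone (the wider RIP spread or the narrower input spread), members higher ranged from 0 to 5, genes higher from 0 to 3515 and genes lower from 0 to 3933, other m6A genes higher from 0 to 3 and lower from 0 to 6, and supply genes higher from 0 to 3 and lower from 0 to 2. The zeros came without either input, when no gene passed in limma. At an unadjusted p under 0.05, input 1 left out gave 737 genes higher and 2299 lower, and input 2 left out gave 608 and 2257. METTL14 reversed to -0.68 without input 1 (1.67 without input 2), and WTAP to -0.95 without RIP 1 (1.64 without RIP 2). The title suffix was also fitted as a replicate block. It pairs only 2 libraries of each group, and no label explains it (correlation of same-suffix deviations 0.214). Under the block VIRMA passed (limma adjusted p = 0.0443), RBM15 and RBM15B kept their calls (0.00819 and 0.0096), and 2477 genes were higher and 3466 lower, with 2 supply genes higher. The cause of these shifts was not tested. Depth is not stated, so how far it limits single members is not known here.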
